A study of Homo sapiens with 6 samples.

Results

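Protocadherins are cadherin-related adhesion proteins. The genes described here are all entries of a gene count table from NCI-H660 cells whose symbol begins with PCDH. They number 73 of 28008, and comprise 15 genes of the alpha cluster (PCDHA), 19 of the beta cluster (PCDHB), 23 of the gamma cluster (PCDHG), 13 genes named PCDH plus a number, and 3 antisense RNAs at PCDH9 that are non-coding. PCDHB17P, PCDHB18P, PCDHB19P and PCDHGB8P are pseudogenes. NCI-H660 (H660) is an established human neuroendocrine prostate cancer (NEPC) line, here transduced with a lentivirus that expresses a short hairpin RNA (shRNA) to MUC1 when tetracyclines are present, and selected in puromycin. All 6 libraries came from these transduced H660/tet-MUC1shRNA cells. DOX-negative cells received 0.1% DMSO as vehicle (n = 3), and DOX-positive cells received doxycycline at 500 ng/ml for a week to induce the hairpin and silence MUC1-C (n = 3). No arm with a control hairpin was analysed here, so an effect of doxycycline and an effect of the hairpin cannot be told apart, and the labels do not say whether replicates were separate cultures, so p-values measure the spread between these libraries.

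The clustered protocadherins lie side by side on chromosome 5q31. Each alpha and gamma gene has a variable first exon with its own promoter, which is spliced to constant exons shared by the whole cluster, whereas beta genes are mostly unspliced. In neurons, individual cells choose a few of these promoters, with CTCF and cohesin looping a distant enhancer to the chosen ones and with DNA methylation at the silent ones. The resulting set of surface proteins binds only matching sets on other cells, which gives neurites a means of recognising their own branches. Most clustered promoters hold a conserved sequence element with a CGCT core, while some genes, PCDHB1 and several C-type genes among them, are known to lack it. The genes named PCDH plus a number are scattered over other chromosomes or lie outside the cluster, and most belong to the delta group, which controls cell adhesion and migration during development.

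The core element is shown first because it is the sequence that most of the clustered promoters share. The windows below end at or before the annotated start of the gene on the plus strand of chromosome 5, come from RefSeq (GRCh38.p14), and have in capitals the CGCT that follows the letters GNNGG or, where a promoter has no such run, the CGCT nearest the start. RefSeq windows were matched for 58 of the 70 members other than the antisense RNAs, 1 window a gene. PCDHA4, PCDHA10, PCDHB2 and PCDHB5 are the members with the most reads in their clusters, PCDHA11, PCDHB12 and PCDHGA2 are among the members with the largest fold changes, and PCDHGB1 and PCDHGB2 are, after PCDHGC3, the gamma members with the highest level.
PCDHA4 (chr5:140806971-140807010): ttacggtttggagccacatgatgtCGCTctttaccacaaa
PCDHA10 (chr5:140855833-140855872): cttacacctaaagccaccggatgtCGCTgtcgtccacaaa
PCDHA11 (chr5:140868875-140868914): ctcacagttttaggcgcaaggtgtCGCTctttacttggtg
PCDHB2 (chr5:141094536-141094575): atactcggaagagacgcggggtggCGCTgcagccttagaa
PCDHB5 (chr5:141135171-141135205): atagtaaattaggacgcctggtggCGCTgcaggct
PCDHB12 (chr5:141208635-141208674): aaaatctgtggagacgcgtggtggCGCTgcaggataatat
PCDHGA2 (chr5:141338695-141338734): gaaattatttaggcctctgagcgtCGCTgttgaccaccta
PCDHGB1 (chr5:141350017-141350056): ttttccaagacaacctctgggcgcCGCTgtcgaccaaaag
PCDHGB2 (chr5:141359913-141359952): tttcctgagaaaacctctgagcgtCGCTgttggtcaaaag

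In these windows the beta members share the letters ggtgg before the core, whereas the alpha members have atgt or gtgt before it and the gamma members have ctctg some bases further up. Over the 250 bases before the start, CGCT on either strand was present in 12 of 13 alpha, 13 of 14 beta, 20 of 20 gamma and 10 of 11 other windows, and in 64.3% of the 27305 RefSeq promoters. On the gene's own strand alone the counts were the same for the 3 clusters, 6 of 11 for the other protocadherins and 47.9% of all promoters. The longer beta form GNNGGCGCT, which contains GGCGCT and CGCT, was found on either strand in 12 of 14 beta windows, in 0 of 13 alpha, 0 of 20 gamma and 0 of 11 other windows, and in 7.69% of all promoters. GGCGCT itself, also on either strand, was held by 12 of 14 beta, 8 of 20 gamma, 0 of 13 alpha and 1 of 11 other windows and by 17.9% of all promoters, and on the gene's own strand by 12 of 14 beta, 3 of 20 gamma and 0 of 11 other windows and by 9.86% of all promoters. The beta windows without GNNGGCGCT were those of PCDHB1 and PCDHB8. The PCDHB8 window ends, at the annotated start, in letters close to those just before the GNNGGCGCT form of PCDHB13. It therefore does not show that PCDHB8 lacks the form.

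The 250 bases upstream of the called genes are given for PCDHB1, PCDHB14 and PCDHGC3, with each CGCT of either strand in capitals, because these promoters belong to genes that passed the test in different directions. They lie on the plus strand at chr5:141051124-141051373 for PCDHB1, chr5:141223093-141223342 for PCDHB14 and chr5:141475716-141475965 for PCDHGC3.
PCDHB1: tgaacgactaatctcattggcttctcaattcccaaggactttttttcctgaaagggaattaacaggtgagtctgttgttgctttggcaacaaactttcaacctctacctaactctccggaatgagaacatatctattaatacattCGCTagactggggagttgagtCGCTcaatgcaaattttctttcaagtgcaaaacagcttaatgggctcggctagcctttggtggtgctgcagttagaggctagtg
PCDHB14: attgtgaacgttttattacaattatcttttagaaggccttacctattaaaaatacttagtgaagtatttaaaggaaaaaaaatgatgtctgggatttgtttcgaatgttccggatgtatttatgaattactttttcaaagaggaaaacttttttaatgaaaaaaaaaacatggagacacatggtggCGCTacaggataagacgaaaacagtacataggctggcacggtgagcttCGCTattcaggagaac
PCDHGC3: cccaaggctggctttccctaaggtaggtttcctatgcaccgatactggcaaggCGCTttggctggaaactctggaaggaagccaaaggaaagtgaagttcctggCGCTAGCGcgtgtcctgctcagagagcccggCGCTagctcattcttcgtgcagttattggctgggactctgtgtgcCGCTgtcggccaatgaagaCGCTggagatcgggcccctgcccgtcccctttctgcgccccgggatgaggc

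PCDHB14 carries the GNNGGCGCT form, and PCDHB1 and PCDHGC3 do not. PCDHGC3 holds 5 CGCT runs on its own strand and 6 over both strands, and PCDHB1 and PCDHB14 hold a pair each. A match of letters is a description and does not show that a factor binds.

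Each library held between 47620696 and 74061121 counts, of which protocadherin genes together took between 0.0434% and 0.0471%. MUC1, the target of the hairpin, had 88.2, 90.2 and 79.6 CPM (counts relative to the TMM-adjusted library size) without DOX and 36.7, 37.2 and 29.9 CPM with it, which is -1.32 ± 0.10 (SE) on the log2 scale (adjusted p = 0.00017). Unless another tool is named, values of change are given as log2 ratios of DOX-positive to DOX-negative libraries and come, with their SE and Benjamini-Hochberg adjusted p, from the edgeR quasi-likelihood test over 17026 genes. Genes with an adjusted p under 0.05 are referred to as called. Of 7 neuroendocrine markers, INSM1 and NCAM1 were called lower, and the summed level of the 7 was 1609 to 1814 CPM without and 1342 to 1624 CPM with DOX. CHGB was not called, but its groups did not overlap and were higher with DOX (0.29 ± 0.11, adjusted p = 0.17). Luminal prostate markers were low, with KLK3 at 0 CPM and a summed level of at most 3.15 CPM. Endothelial markers summed to 3.09 to 4.76 CPM without and 6.24 to 8.35 CPM with DOX, with VWF and CDH5 called higher and the defining marker PECAM1 at a mean of 0.0717 and 0.0423 CPM. COL1A1 and LUM of 5 fibroblast markers and CD68 of 3 leukocyte markers were also called higher, the summed levels being 25.1 to 30.6 and 23.4 to 27.9 CPM for fibroblast markers and 1.08 to 1.15 and 1.83 to 1.98 CPM for leukocyte markers, while DCN, PDGFRB, PTPRC and CD3E were at a mean of at most 0.0178 CPM in both groups. COL1A2, the fibroblast marker with the highest level, went the other way without a call. It had 14.6, 21.5 and 18.3 CPM without and 13.9, 12.6 and 6.81 CPM with DOX, with no overlap (-0.71 ± 0.27, adjusted p = 0.2). The part of these markers in the protocadherin values was not tested. In bulk RNA, fewer cells of a type and less RNA per cell cannot be told apart.

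**Figure D1:**
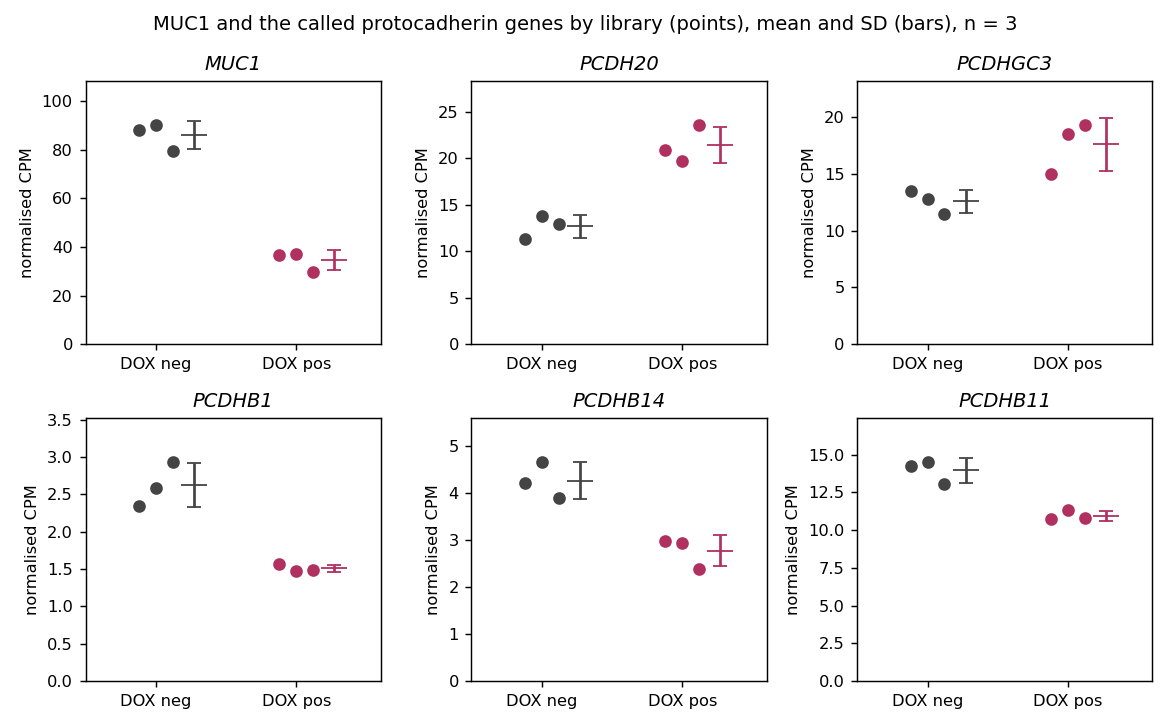
Normalised CPM (vertical axes, starting at 0) of MUC1 and of the 5 called protocadherin genes in each DOX-negative (DOX neg) and DOX-positive (DOX pos) library, with the mean and SD of 3 libraries beside the points. The groups do not overlap in any panel, MUC1, PCDHB1, PCDHB14 and PCDHB11 being lower and PCDH20 and PCDHGC3 higher with DOX.

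All 4 classes were transcribed in H660 cells, at levels that differed widely between members. The genes named PCDH plus a number held 33.1% of the protocadherin counts, beta genes 31.7%, alpha genes 22.4% and gamma genes 12.8%. PCDH1, a delta protocadherin also known from airway epithelium, had the highest level with a mean of 8.53 TPM (the length-scaled unit of the authors), followed by PCDHB2 with 8.11 TPM and PCDHB5 with 7.65 TPM. In the alpha cluster PCDHA10 and PCDHA4 stood out with means of 2.49 and 2.44 TPM and held 47.7% ± 2.6 (SD, n = 3) of the summed alpha CPM in DOX-negative libraries. PCDHB2 and PCDHB5 together held 53.0% ± 2.3 of the summed beta CPM in the same libraries. PCDHGC3, a C-type gamma gene, led its cluster with 1.65 TPM and was the only gamma member with a mean TPM of at least 1. Mean counts per library ran from 96.5 to 1591 over alpha members, from 9.17 to 2496 over beta members and from 9 to 961 over gamma members.

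Levels of alpha and gamma genes carry a particular limit. The deposited TPM of alpha genes implied a median length of 5899 bases. This is close to the median of 6284 exonic bases that the GENCODE models give with the shared constant exons. It is well above the median of 3360 bases that belong to a single gene alone. The corresponding medians were 5048, 5203 and 2833 bases for gamma genes, while beta genes share no exon. The alpha member with the fewest counts, PCDHA3, held 88 to 106 counts in each library and PCDHGA3 held 6 to 14, so if reads of the constant exons were credited to every gene they added no more than this to each. By the median lengths TPM set alpha and gamma genes lower against beta genes than a count over the variable exons would. PCDHA10 and PCDHA4 had 12300 and 10574 bases of their own, above their implied lengths of 6019 and 5899, so the medians do not cover them. Ratios between groups of libraries for the same gene do not depend on the length. Shared reads could still enter such a ratio. PCDHA13 had 119 to 197 counts in each library, of which 88 to 106 would be a large part. How far shared reads entered the counts was not tested.

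Silencing MUC1-C was accompanied by changes in both directions among 66 tested members. Of these, 5 were called (7.58%), 2 higher and 3 lower, compared with 4.87% of all tested genes, 2.91% being called higher and 1.96% lower. The genes were PCDH20 and PCDHGC3, which rose, and PCDHB1, PCDHB14 and PCDHB11, which fell. DESeq2 called 10 of 69 members, compared with 1355 of 22557 genes in all. It added PCDH7 on the higher side and PCDHA11, PCDHB3, PCDHB12 and PCDHB18P on the lower side. Over all tested members 51 had a fold change below 0 and 15 above it, with a median log2 fold change of -0.26, compared with 0.0003 over all tested genes, of which 49.9% were below 0. The members share libraries, and many share sequence, so they are not independent counts of the same effect. The untested members were PCDHGA3, PCDH19, PCDH11X, PCDH11Y and the antisense RNAs PCDH9-AS2, PCDH9-AS3 and PCDH9-AS4, the last 3 of which had 0 counts in every library. PCDHGA3 had a mean of 9 counts and PCDH19 of 2.33 counts, so a change in these genes was not detectable at this depth.

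Beta members had values below 0 throughout. Fold changes were below 0 for 19 of 19 members with a median of -0.38 and a range from -0.90 to -0.09, and the 3 DOX-positive libraries lay below all 3 DOX-negative libraries for 14 of 19 (73.7%), compared with 13.3% of all tested genes. The adjusted test passed for 3 members (15.8%), all lower, compared with 4.87% of all tested genes, 1.96% being called lower. An unadjusted p under 0.05 was found for 11 (57.9%), all of them lower, compared with 21.1% of all tested genes in both directions and 9.53% lower. PCDHB1, the member of the cluster nearest the alpha genes and without the beta element (chr5:141051374-141059346 in RefSeq, ENSG00000171815.5 in GENCODE), had 2.35, 2.59 and 2.94 CPM without DOX and 1.56, 1.47 and 1.49 CPM with it. These libraries did not overlap, and the log2 fold change was -0.79 ± 0.15 (adjusted p = 0.015). The gene had 81 to 160 counts in each library and overlaps the antisense gene PCDHB1-AS1, whose reads cannot be told apart from its own without a stated strand setting. Without DOX-negative replicate 2 or 3 the adjusted p was 0.069 or 0.082, with log2 fold changes of -0.80 and -0.71.

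PCDHB14 (chr5:141223343-141227759, ENSG00000120327.6) fell from 4.23, 4.67 and 3.89 CPM to 2.98, 2.95 and 2.39 CPM, a log2 fold change of -0.63 ± 0.14 (adjusted p = 0.026). PCDHB11 (chr5:141199627-141203779, ENSG00000197479.6) fell from 14.3, 14.6 and 13.0 CPM to 10.7, 11.3 and 10.8 CPM, a log2 fold change of -0.35 ± 0.09 (adjusted p = 0.046). For both genes every DOX-positive library was below every DOX-negative library. The calls were lost in several fits with a library left out, while the fold changes stayed between -0.69 and -0.53 for PCDHB14 and between -0.40 and -0.32 for PCDHB11 in those fits. The adjusted p of PCDHB14 was 0.054, 0.14 and 0.082 without DOX-negative replicates 1, 2 and 3 and 0.075 without DOX-positive replicate 3. That of PCDHB11 was 0.14, 0.22 and 0.11 without the DOX-negative replicates in the same order, and 0.097 and 0.11 without DOX-positive replicates 1 and 3. Beta genes are similar copies of each other, and reads that fit more than 1 copy may have been split or dropped in the counting.

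The other beta members that the selection rule names did not pass the adjusted test. PCDHB12 was the nearest to the threshold with 1.86, 2.17 and 2.39 CPM without and 1.34, 1.56 and 1.25 CPM with DOX (log2 fold change -0.63 ± 0.17, adjusted p = 0.051). The pseudogene PCDHB17P had the largest estimated change of the cluster at -0.90 ± 0.45, but on 5 to 14 counts in each library, and its groups overlapped (adjusted p = 0.28). PCDHB2 had 41.1, 42.6 and 39.1 CPM without and 37.2, 40.2 and 38.3 CPM with DOX (-0.09 ± 0.08, adjusted p = 0.57). PCDHB5 had 42.7, 45.6 and 36.3 CPM without and 36.4, 38.8 and 37.3 CPM with DOX (-0.15 ± 0.09, adjusted p = 0.39). The groups overlapped for both of these abundant genes. PCDHB8, whose window may end too early to hold the GNNGGCGCT form, had 14.1, 14.9 and 14.6 CPM without and 11.2, 12.5 and 13.0 CPM with DOX, with no overlap (-0.25 ± 0.09, adjusted p = 0.15).

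The summed beta level was 155, 162 and 150 CPM without and 130, 136 and 132 CPM with DOX, 155 ± 6.08 compared with 133 ± 2.96 (mean ± SD, n = 3). The shares shifted at the same time, since PCDHB2 and PCDHB5 made up 53.0% ± 2.3 of the beta sum without and 57.3% ± 0.78 with DOX, with no overlap between libraries. Across alpha and beta members the change and the read number were related in rank (Spearman rho 0.42 over 34 genes, which share libraries and depth), whereas over the 22 tested gamma members rho was 0.02. The 7 alpha and beta members with at least 500 counts had a median log2 fold change of -0.17 and the 27 members below that a median of -0.42, while PCDHGC3, the single gamma member above it, was at 0.48.

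**Figure D2:**
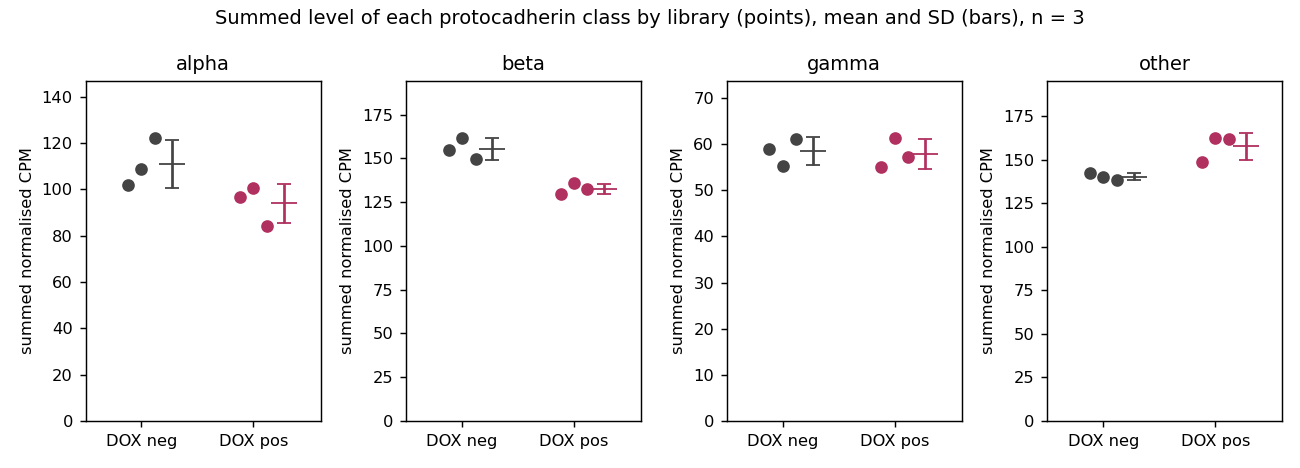
Summed normalised CPM (vertical axes, starting at 0) of the alpha, beta, gamma and other protocadherin genes in each library, with the mean and SD of 3 libraries beside the points. The alpha and beta sums are lower in all 3 DOX-positive libraries, the gamma sums overlap, and the sums of the other genes are higher with DOX. PCDH1 has the highest level among the other genes, but its own groups overlap.

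Alpha members also lay below 0, without any call. The fold changes of 15 of 15 members were negative with a median of -0.35 and a range from -0.54 to -0.07, 8 (53.3%) had an unadjusted p under 0.05, compared with 9.53% of all tested genes lower at that level, and 0 passed the edgeR test after adjustment, while DESeq2 called PCDHA11. The groups did not overlap for 5 of 15 members (33.3%), all of them lower with DOX, compared with 13.3% of all tested genes. PCDHA13 had 2.35, 2.72 and 4.14 CPM without and 2.25, 2.16 and 1.86 CPM with DOX (-0.54 ± 0.20, adjusted p = 0.14). PCDHA11 had 5.37, 7.06 and 9.22 CPM without and 5.35, 5.51 and 4.22 CPM with DOX (-0.52 ± 0.18, adjusted p = 0.12 in edgeR and 0.047 in DESeq2). PCDHA7 had 2.82, 2.96 and 4.58 CPM without and 2.94, 2.58 and 1.94 CPM with DOX (-0.46 ± 0.21, adjusted p = 0.22). In all 3 genes DOX-negative replicate 3 was the highest library and DOX-positive replicate 3 the lowest. Without DOX-negative replicate 3 the log2 fold changes were -0.28 for PCDHA13, -0.31 for PCDHA11 and -0.22 for PCDHA7, and without DOX-positive replicate 3 that of PCDHA7 was -0.30.

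The same libraries marked the extremes of the cluster as a whole. The median deviation of alpha members from their own mean log2 level was -0.02, 0.11 and 0.38 in the DOX-negative libraries and -0.06, -0.08 and -0.30 in the DOX-positive libraries. For beta members it was 0.12, 0.18 and 0.19 without and -0.20, -0.13 and -0.19 with DOX, so the 3 libraries of a group lay closer together. Without DOX-negative replicate 3 the alpha median was -0.21 and that of beta members -0.34, with 15 of 15 and 19 of 19 members below 0. Without DOX-negative replicate 2 or DOX-positive replicate 3, 14 of 15 alpha members were below 0, PCDHA1 being at 0.05 in the former fit and PCDHAC2 at 0.02 in the latter. The abundant alpha members had small differences. PCDHA10 had 25.8, 27.8 and 27.5 CPM without and 24.3, 25.2 and 22.3 CPM with DOX (-0.17 ± 0.08, adjusted p = 0.26), a small difference with no overlap of the groups. PCDHA4 had 25.1, 24.8 and 27.4 CPM without and 22.9, 25.0 and 22.4 CPM with DOX (-0.14 ± 0.09, adjusted p = 0.39), and its groups overlapped. PCDHAC2, a C-type gene, had 8.34, 8.24 and 7.88 CPM without and 7.86, 8.77 and 6.42 CPM with DOX (-0.09 ± 0.12, adjusted p = 0.73). Summed alpha CPM was 102, 109 and 122 without and 96.7, 101 and 84.2 with DOX, without overlap.

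**Figure D3:**
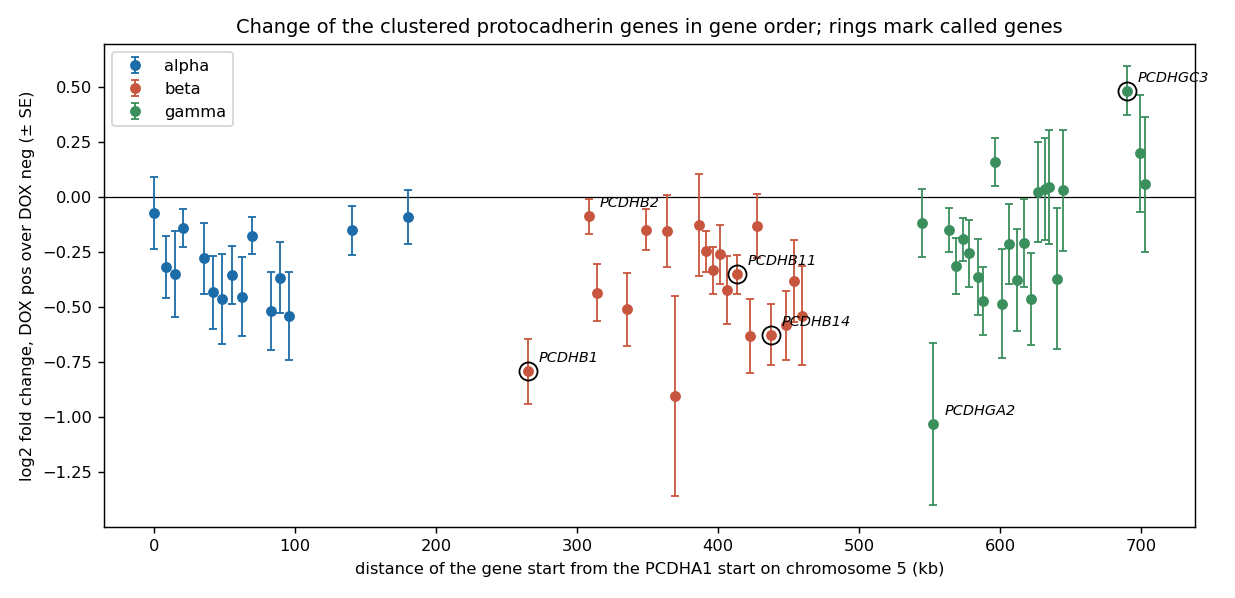
Log2 fold change of DOX-positive over DOX-negative (vertical axis, points with SE bars) for the tested alpha, beta and gamma genes against the distance of their start from that of PCDHA1 in kb (horizontal axis), with rings around called genes. All 15 alpha and 19 beta points lie below 0, 8 of 22 gamma points lie above it, and PCDHGC3 near the end of the cluster has the highest value at 0.48.

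Gamma members were divided. Of 22 tested, 14 had a fold change below 0 and 8 above it, with a median of -0.20. In the higher direction 1 was called (4.55%), near the share of all tested genes called, 4.87% in both directions and 2.91% higher. PCDHGC3 (chr5:141475966-141512975, ENSG00000240184.6) had 13.5, 12.8 and 11.4 CPM without and 14.9, 18.5 and 19.3 CPM with DOX. Every DOX-positive library exceeded every DOX-negative library, and the log2 fold change was 0.48 ± 0.11 (adjusted p = 0.031). The call was lost without DOX-negative replicate 2 or 3 (adjusted p = 0.11 and 0.17) and without DOX-positive replicate 2 or 3 (0.058 and 0.094), with log2 fold changes between 0.41 and 0.50 in these fits. Of its exonic bases in GENCODE, 40.2% are shared with other gamma genes. The share of PCDHGC3 in the summed gamma CPM was 21.5% ± 2.5 without and 30.3% ± 3.3 with DOX (SD, n = 3), without overlap. The sum itself overlapped between groups, at 59.0, 55.3 and 61.2 CPM without and 55.1, 61.4 and 57.3 CPM with DOX.

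Among gamma members of the A and B types, values lay mostly below 0, and 0 passed the adjusted test in edgeR or DESeq2. An unadjusted p under 0.05 was found for 4 of 19 (21.1%), all of them lower. The share of all tested genes at that level was 21.1% in both directions and 9.53% lower. The A type had 7 of 11 tested members below 0 with a median of -0.21, and the B type, which includes the pseudogene PCDHGB8P, had 7 of 8 with a median of -0.37. The 5 C-type genes of the alpha and gamma clusters had a median of 0.06, with 3 above 0. PCDHGA2 had the largest estimated change of all members at -1.03 ± 0.37 (adjusted p = 0.13), from 0.376, 0.388 and 0.798 CPM without to 0.304, 0.164 and 0.258 CPM with DOX, on 9 to 38 counts in each library. Without DOX-negative replicate 3 it was -0.63, smaller in size than PCDHB17P at -0.87 and PCDHB1 at -0.71 in the same fit. PCDHGB4 had 1.21, 0.954 and 1.83 CPM without and 1.11, 0.909 and 0.787 CPM with DOX, so the groups overlapped (-0.48 ± 0.25, adjusted p = 0.29, and -0.21 without DOX-negative replicate 3). PCDHGB1 had 8.09, 7.34 and 7.98 CPM without and 6.95, 7.22 and 6.94 CPM with DOX (-0.15 ± 0.10, adjusted p = 0.43). PCDHGB2 had 7.78, 7.57 and 7.62 CPM without and 6.72, 7.02 and 6.38 CPM with DOX (-0.19 ± 0.10, adjusted p = 0.29). Both of these were lower in every DOX-positive library by an amount that the test did not separate from the spread. In all, the groups did not overlap for 6 gamma members that were lower (27.3%, against 13.3% of all tested genes) and for 2 that were higher (9.09%, against 14.8%).

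The protocadherins outside the clusters had mostly positive values. Of 10 tested, 7 had a fold change above 0, compared with 8528 of all 17026 tested genes. A call was made for 1 of the 10 (10%), compared with 4.87% of all tested genes, 2.91% being called higher. The median of these members was 0.12. It was 0.04 without DOX-positive replicate 2, and 0.07 without DOX-negative replicate 2 or 3. PCDH20 (chr13:61409685-61415849, ENSG00000280165.1), a non-clustered protocadherin known from the nervous system, rose from 11.3, 13.8 and 12.9 CPM to 20.9, 19.8 and 23.6 CPM. The lowest DOX-positive library was well above the highest DOX-negative library, the log2 fold change was 0.76 ± 0.10 (adjusted p = 0.0038), and the call held without any single library, at adjusted p between 0.0052 and 0.044. In length-scaled terms its mean over the 6 libraries was 1.97 TPM. PCDH7, a delta protocadherin found in brain and in several carcinomas, had 21.3, 18.1 and 21.1 CPM without and 23.0, 24.7 and 29.2 CPM with DOX. Its groups did not overlap, and the log2 fold change of 0.35 ± 0.11 stayed outside the threshold in edgeR (adjusted p = 0.083) and inside it in DESeq2 (adjusted p = 0.043).

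The fold change of the most abundant member was near 0. PCDH1 had 88.9, 87.4 and 82.2 CPM without and 84.4, 96.3 and 89.1 CPM with DOX, with overlapping groups (0.06 ± 0.08, adjusted p = 0.70). PCDH15, which forms the tip links of inner ear hair cells, had 0.782, 1.23 and 1.45 CPM without and 0.741, 0.982 and 0.705 CPM with DOX (-0.51 ± 0.25, adjusted p = 0.27). PCDH18 had 0.548, 0.695 and 0.693 CPM without and 0.595, 0.327 and 0.502 CPM with DOX (-0.41 ± 0.27, adjusted p = 0.41). Both rested on 18 to 76 counts in each library, and their groups overlapped. The remaining tested members were PCDH8, PCDH9, PCDH10, PCDH12 and PCDH17, with fold changes from -0.17 to 0.38 and no call. Of these PCDH12, known from endothelium, had the highest at 0.38 ± 0.19 (adjusted p = 0.28), with overlapping groups, and its gene overlaps RNF14. Summed CPM of the genes outside the clusters was 142, 140 and 138 without and 149, 163 and 162 with DOX.

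**Figure D4:**
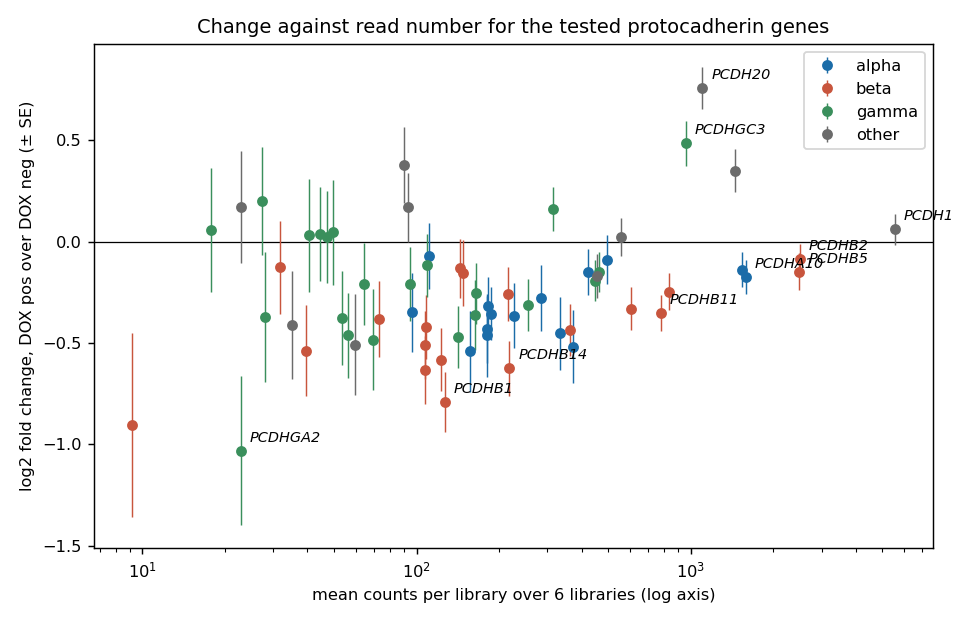
Log2 fold change of DOX-positive over DOX-negative (vertical axis, points with SE bars) against mean counts per library (horizontal axis, log scale) for the 66 tested protocadherin genes by class. Low-count members such as PCDHGA2 have wide bars, the most abundant alpha and beta members PCDHA10, PCDHB2 and PCDHB5 lie close to 0, and PCDH20 and PCDHGC3 lie above it with 1101 and 961 counts.

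Genes with known roles around the clustered promoters and proteins were mostly called in neither direction. Of 19 genes for promoter looping and silencing, which include CTCF, the cohesin subunits, SMCHD1 and the DNA methyltransferases, 1 was called. Among all tested genes 4.87% were called. DNMT3A, a de novo DNA methyltransferase, fell from 77.2, 78.0 and 77.2 CPM to 62.5, 66.2 and 59.3 CPM (-0.31 ± 0.07, adjusted p = 0.034). The median of the list was -0.02. Of 19 adaptors, WAVE complex subunits and processing proteases of protocadherins, 0 were called in edgeR or DESeq2, 2 had an unadjusted p under 0.05, and the median was -0.004. The share of all tested genes at that unadjusted level was 21.1%.

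Of 26 classical cadherins and catenins 14 were tested and 3 called, compared with 4.87% of all tested genes. CDH5, the cadherin of endothelial junctions, rose from 2.83, 1.99 and 2.06 CPM to 3.67, 5.09 and 4.56 CPM (0.94 ± 0.17, adjusted p = 0.013), and CDH24 rose from 33.8, 35.5 and 31.0 CPM to 40.1, 47.7 and 42.3 CPM (0.37 ± 0.09, adjusted p = 0.038). CTNNB1, which encodes the beta-catenin that anchors classical cadherins, fell from 556, 573 and 605 CPM to 487, 473 and 470 CPM (-0.28 ± 0.07, adjusted p = 0.044). Of 15 genes that flank or lie between the clusters on chromosome 5, 13 were tested, 0 were called in edgeR, 1 (DIAPH1) was called in DESeq2, 1 had an unadjusted p under 0.05, and the median was 0.02, compared with -0.35 for alpha and -0.38 for beta members. Over all tested genes 4.87% were called in edgeR and 21.1% had an unadjusted p under 0.05.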

How the data were processed

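Libraries were made from total RNA with a stranded mRNA kit per the labels. RN7SK, an RNA without a poly(A) tail, held 5.83% to 7.79% of counts. Raw counts from STAR (28008 gene symbols) were deposited by the authors, with a TPM table (25673 symbols, all 73 members included). The submitters' processing notes name STAR, DESeq2 and GRCh38. Versions, annotation and strand setting of the counting are not given in the sources used here.

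The members, gene lists and naming rule were chosen with earlier results of these data known. Named are all called members, the 3 with the largest fold change and the 3 with the highest mean TPM in each class, and up to 4 called genes of each related list. Members called by alternatives alone, members compared for their promoter or overlapping genes, and the members with the fewest counts were named after their values were seen.

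Counts were tested with edgeR 4.0.16 in R 4.3.3 (filterByExpr, TMM, robust quasi-likelihood fit, Benjamini-Hochberg over 17026 genes, no covariate). The SE was derived from the F statistic. On simulated counts of this comparison, over 17044 genes, the fit called 13.4% of genes changed 1.25-fold, 76.1% of those changed 1.5-fold and 100% of those changed 2-fold, and 0.0712% of unchanged genes. The changes were placed only in genes above a floor of mean counts. The shares of changed genes therefore do not cover members with few counts, such as PCDHGA2 and PCDHB17P. Alternatives used DESeq2 1.42.0 and limma 3.58.1. Within-group library pairs differed by a chi-square per degree of freedom of 16.4 to 36.0 without and 62.2 to 101 with DOX, so none was counted as a repeat. The DOX-positive libraries thus differed more from each other, while the edgeR fit and the simulation used the same dispersion of a gene for both groups. Exonic lengths and gene identifiers are from GENCODE 29, and gene positions and promoters from RefSeq. Y-linked levels are not shown.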

Additional observations from a re-analysis of the deposited data

How the results depend on the processing

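MUC1 and the 4 class medians kept their direction in the count fits. The count of called members, 5 in the edgeR fit, was 10 in DESeq2, 0 in each of the 3 limma fits on log2 TPM (pseudocount 1 or 0.1 with a mean TPM of at least 1, 12 members tested, and pseudocount 1 unfiltered, 69 members tested), and 1 to 5 with a library left out (1 without DOX-negative replicate 2 or 3, 2 without DOX-positive replicate 3). An offset for GC content and gene length, chosen after seeing the data, gave 11. The TPM fits also called few genes in all, 30, 35 and 0 compared with 829, and the edgeR total was 58 to 1035 with a library left out, 1355 in DESeq2 and 2029 with the offset. The member median of -0.26 was -0.075, -0.11 and -0.042 in the TPM fits in the same order and -0.29 to -0.16 with a library left out, the value nearest 0 being without DOX-positive replicate 3. The gamma median turned to 0.31 and 0.47 in the filtered TPM fits, which kept PCDHGC3 alone. The related lists held 4 calls, 0 in the TPM fits, 7 with the offset and 0 to 5 with a library left out (0 without DOX-negative replicate 2 or 3, 1 without DOX-negative replicate 1 or DOX-positive replicate 3, 2 without DOX-positive replicate 1). MUC1 missed the threshold only in the unfiltered TPM fit (-1.22, adjusted p = 0.29). Over all alternatives PCDH20 was called in 12 of 15, PCDHB1 in 10 of 13, PCDHB14 in 8 of 13, PCDHGC3 in 8 of 15 and PCDHB11 in 6 of 15. Of the 66 tested members 7 changed sign in at least 1 alternative that held them, 2 of them alpha (PCDHA1 and PCDHAC2), 5 gamma and 0 beta, and 0 of these 7 were called in edgeR or DESeq2. Where not stated, the cause was not tested.

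Deviations of libraries with equal replicate numbers had correlations of -0.35, 0.01 and -0.12 over 17026 genes. With 3 libraries a group these values cannot show whether equal numbers share a batch or a culture. With the replicate block in edgeR 4 members were called, PCDHB11 being lost (adjusted p = 0.062), and 998 genes in all, compared with 829 without it. The member median was -0.26 and the related lists held 3 calls. MUC1 was at -1.32 (adjusted p = 6.2e-12) and PCDH20 at 0.76 (adjusted p = 3.8e-05) in that fit. At this depth members with few counts had wide errors.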
